A study of Mus musculus with 14 samples.

Results

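The cells described here are hindbrain cells of mouse embryos at embryonic stage E18.5 that carried a UMI of Nhlh1 together with UMIs of Barhl1 and of anterior Hoxb genes and none of 2 mitotic genes. A UMI is a tagged RNA molecule counted once. A cell was taken when it held at least 1 UMI of Nhlh1, at least 2 UMIs of Barhl1, at least 2 UMIs of Hoxb2, Hoxb3, Hoxb4 and Hoxb5 together, and 0 UMIs of Mki67 and Top2a, among cells with at least 1000 genes and under 10% mitochondrial UMIs. They were chosen under the working name of late-migrating pontine neurons and are called Nhlh1/Hoxb cells below. They numbered 997 of the 55054 cells kept at E18.5 and of the 122658 cells kept in all libraries of the series.

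Control embryos were Atoh1Cre/+; Rosa lsl-TdTomato/+, and the others were Atoh1Cre/S193A; Rosa lsl-TdTomato/+, called Atoh1S193A/-. The Cre allele serves as the null allele, so that controls had 1 functional copy of Atoh1 and Atoh1S193A/- embryos had the S193A hypomorphic copy alone. All embryos were C57BL/6J, and TdTomato-positive, DAPI-negative cells of the dissociated hindbrain were sorted. The label is driven by Atoh1Cre, so the sort was for cells with a history of Atoh1 expression, with granule neurons and unipolar brush cells of the cerebellum among them. Each library came from 1 embryo, and each Atoh1S193A/- embryo was collected with a littermate control, giving 3 libraries per genotype. E14.5 embryos of the same genotypes, again 3 libraries each, were used for comparison.

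Pontine nuclei neurons relay signals from the cerebral cortex to the cerebellum. They arise from Atoh1-expressing progenitors of the rhombic lip, leave the cell cycle, and migrate tangentially along the surface of the hindbrain to the ventral pons. Nhlh1 and Barhl1 encode transcription factors of newborn rhombic lip neurons, anterior Hox genes mark an origin in the hindbrain behind the cerebellum, and Robo3 encodes a guidance receptor of migrating precerebellar neurons.

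The E18.5 libraries held 108239001 to 183911797 UMIs over 9292 to 13021 barcodes each, of which 8061 to 11355 passed the limits. The median cell of the set held 12845 to 17039 UMIs in the 6 libraries, and 2 of the 997 cells held under 5000. Between 14 and 34 barcodes were shared by each of the 15 pairs of libraries, and none of them marked an Nhlh1/Hoxb cell in both. A level is the UMI sum over the cells of a library per 1000000 UMIs (CPM), scaled by TMM factors where a test is given. Differences are on the log2 scale with a standard error (SE). This SE was derived as the absolute difference over the square root of the F statistic of the edgeR test.

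Control libraries 1, 2 and 3 held 223, 211 and 226 Nhlh1/Hoxb cells, and Atoh1S193A/- libraries held 177, 80 and 80. The 8 genes of the rule are described without a test, because they chose the cells. Nhlh1 lies at chr1:172052292-172057573, minus strand, Barhl1 at chr2:28907679-28916668, minus strand, and Hoxb2 to Hoxb5 lie next to each other on chromosome 11 (GENCODE M21, GRCm38/mm10). Of the 997 cells, 358 held exactly 1 UMI of Nhlh1, 177 held 2 and 462 held 3 or more. Barhl1 left almost no cells at its limit, since 36 cells held exactly 2 UMIs of it and 31 otherwise alike cells held 1. The Hoxb limit cut through more cells, with 184 cells at exactly 2 Hoxb UMIs and 586 otherwise alike cells at 1. A further 218 cells met every criterion except for a single UMI of Mki67 or Top2a.

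The cells just inside the Hoxb limit lay close to those just outside it, and far from those with many Hoxb UMIs. Robo3 stood at 0.408 ± 0.635 CPM (SD, n = 6 libraries) in cells with 1 Hoxb UMI, 1.79 ± 2.40 CPM in cells with 2, and 343 ± 84.9 CPM in the 446 cells with 10 or more. Crabp1, which encodes a cytosolic retinoic acid-binding protein, went from 3.67 through 17.9 to 1978 CPM over the same classes, and Thsd7a from 23.7 through 60.7 to 449 CPM. In the other direction, Eomes stood at 424 ± 115 CPM with 1 Hoxb UMI, 461 ± 189 CPM with 2 and 57.7 ± 16.9 CPM with 10 or more. Eomes encodes a T-box transcription factor that defines unipolar brush cells of the cerebellum. Neurod1, a factor of granule neurons and other newborn neurons, stood at 1546, 1249 and 205 CPM. Those classes are of the measure that chose the cells and are given as a description, and the class with 2 Hoxb UMIs held 2 to 57 cells per library.

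**Figure D1:**
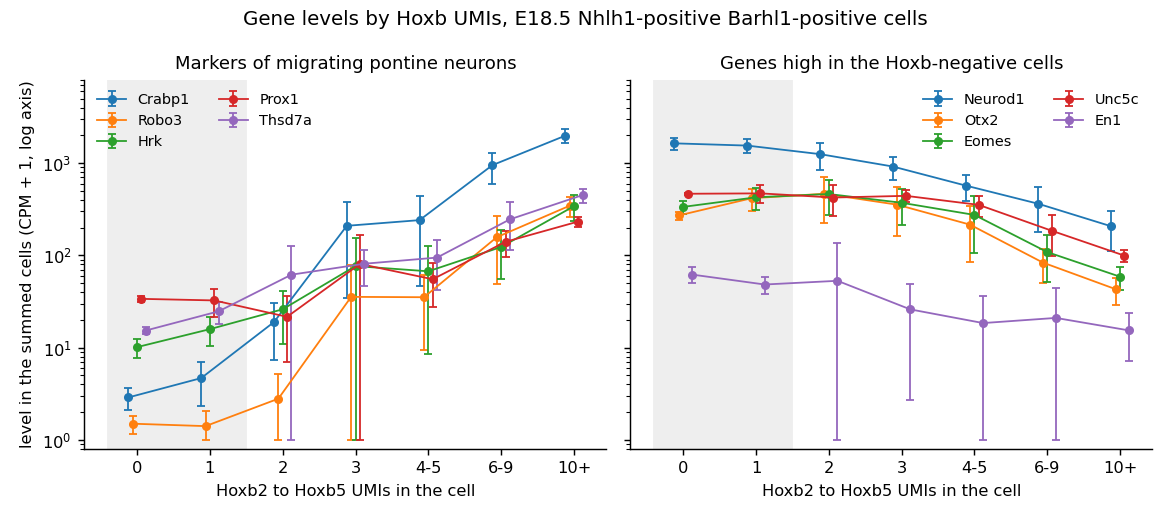
Levels (CPM + 1, log axis) in E18.5 cells positive for Nhlh1 and Barhl1, by the number of Hoxb2 to Hoxb5 UMIs in the cell; points are means of 6 libraries and bars are SD, cut at 0 CPM. The grey area marks cells outside the rule, and Crabp1 goes from 1.88 CPM at 0 Hoxb UMIs to 1978 CPM at 10 or more while Eomes goes from 334 to 57.7 CPM.

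The name of pontine neurons held for some of the cells and not for all. The unipolar brush cell genes Eomes, Lmx1a and Otx2 had 3 or more UMIs together in 397 of the 997 cells, called Eomes-high here, and the other 600 are called Eomes-low. This limit was set after the levels had been seen, and 21 cells held exactly 2 and 21 exactly 3 of those UMIs. Eomes-high cells made up 50.7, 41.2 and 51.3% of the Nhlh1/Hoxb cells in control libraries and 23.2, 22.5 and 27.5% in Atoh1S193A/- libraries, with no overlap.

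The 600 Eomes-low cells carried the defining genes of the migrating neurons. Robo3 averaged 301 ± 89.9 CPM (SD, n = 6) in them and 39.2 ± 31.6 CPM in the Eomes-high cells, without overlap of the libraries (218 to 426 against 12.3 to 85.2 CPM). Crabp1 averaged 1754 ± 366 against 224 ± 125 CPM, Hrk, a gene of a BH3-only protein of the cell death pathway, 298 ± 102 against 58.4 ± 35.1 CPM, and the homeobox gene Prox1 211 ± 33.4 against 57.0 ± 6.48 CPM.

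The Eomes-high cells also held fewer Hoxb UMIs. Hoxb2 to Hoxb5 together averaged 271 ± 57.5 CPM in them (SD, n = 6) and 794 ± 129 CPM in the Eomes-low cells. When every cell was thinned to 5000 UMIs, 36.2 ± 4.27% of the Eomes-high and 79.1 ± 6.52% of the Eomes-low cells (SD, n = 6) still held 2 Hoxb UMIs. Hoxb2 made up 46.4, 49.3 and 46.0% of the Hoxb UMIs of Eomes-high cells in control libraries and 38.6, 21.5 and 20.6% in Atoh1S193A/- libraries. In Eomes-low cells its part was 19.2, 19.0 and 16.8% and 20.2, 16.0 and 12.1%. The Hoxb genes are part of the rule, so these values are a description.

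Hoxb UMIs were also counted in wider sets of cells. Among all non-dividing Eomes-high cells positive for Nhlh1 and Barhl1, 2 or more Hoxb UMIs were found in 12.5, 9.08 and 13.6% in control and 5.02, 2.65 and 3.75% in Atoh1S193A/- libraries. Those cells are the Eomes-high Nhlh1/Hoxb cells themselves, so this share is not a separate background. Dividing granule lineage cells, positive for Barhl1 and for En1 or En2, served as a background. In them the share was 3.32, 2.55 and 4.15% and 4.20, 1.41 and 1.63%, at higher medians of 16385 to 24365 UMIs per cell. After the thinning given above, the shares were 2.59 ± 1.44% of the Eomes-high and 0.699 ± 0.203% of the dividing cells (SD, n = 6). The Eomes-high share was then the higher one in every library. The 7.5% of cells with the highest Scrublet doublet scores of a library took 23.9, 29.9 and 24.1% of the Eomes-high Nhlh1/Hoxb cells in control and 36.6, 72.2 and 63.6% in Atoh1S193A/- libraries. Of the Eomes-low cells they took 10.9, 5.65 and 12.7% and 5.15, 8.06 and 20.7%. The part that doublets and free RNA had in the Eomes-high cells was not tested. Counts for the Eomes-low cells are therefore given beside list counts below, except where a list holds the genes that divide them.

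The share of Nhlh1/Hoxb cells among the sorted cells was lower in every Atoh1S193A/- library than in any control library. It was 2.77, 2.23 and 2.47% in control and 1.56, 0.950 and 0.927% in Atoh1S193A/- libraries, or 2.49 ± 0.268% against 1.15 ± 0.358% (SD, n = 3 each), a ratio of 0.460 (two-sided exact permutation p = 0.1, the smallest that 3 against 3 libraries allow). The libraries did not overlap, and the Atoh1S193A/- embryo was lower in all 3 littermate pairs (exact sign-flip p = 0.25, the smallest for 3 pairs). Without Atoh1S193A/- library 1, the highest of its group, the difference went from -1.35 to -1.55 percentage points. A share among sorted cells does not give the number of cells per embryo.

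Both kinds of cells took a smaller share of the sorted cells in Atoh1S193A/- libraries. Eomes-high Nhlh1/Hoxb cells made up 1.40, 0.920 and 1.27% of all cells in control and 0.361, 0.214 and 0.255% in Atoh1S193A/- libraries, a ratio of 0.231. Eomes-low cells made up 1.36, 1.31 and 1.20% and 1.20, 0.736 and 0.672%, a ratio of 0.672 again without overlap, with Atoh1S193A/- library 1 just under the lowest control library. The difference between both ratios was not tested.

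Among the cells with most Hoxb UMIs and among those with Robo3 the genotypes overlapped. Cells with 10 or more Hoxb UMIs made up 1.01 ± 0.198% of all cells in control and 0.594 ± 0.349% in Atoh1S193A/- libraries (SD, n = 3 each), and the libraries overlapped (two-sided exact permutation p = 0.3), while the Atoh1S193A/- embryo was lower in all 3 pairs (exact sign-flip p = 0.25). Nhlh1/Hoxb cells with a UMI of Robo3 made up 0.732, 0.857 and 0.777% in control and 0.872, 0.570 and 0.394% in Atoh1S193A/- libraries, with overlap (exact permutation p = 0.4) and a lower Atoh1S193A/- share in 2 of 3 pairs. Among all Hoxb-positive, Barhl1-positive, non-dividing cells the Nhlh1-positive ones made up 32.5 ± 8.09% and 23.1 ± 7.06%, also with overlap (exact permutation p = 0.3) and lower in all 3 pairs (exact sign-flip p = 0.25). At 5000 UMIs per cell the share was 0.948 ± 0.111% in control and 0.498 ± 0.281% in Atoh1S193A/- libraries, without overlap (exact permutation p = 0.1).

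**Figure D2:**
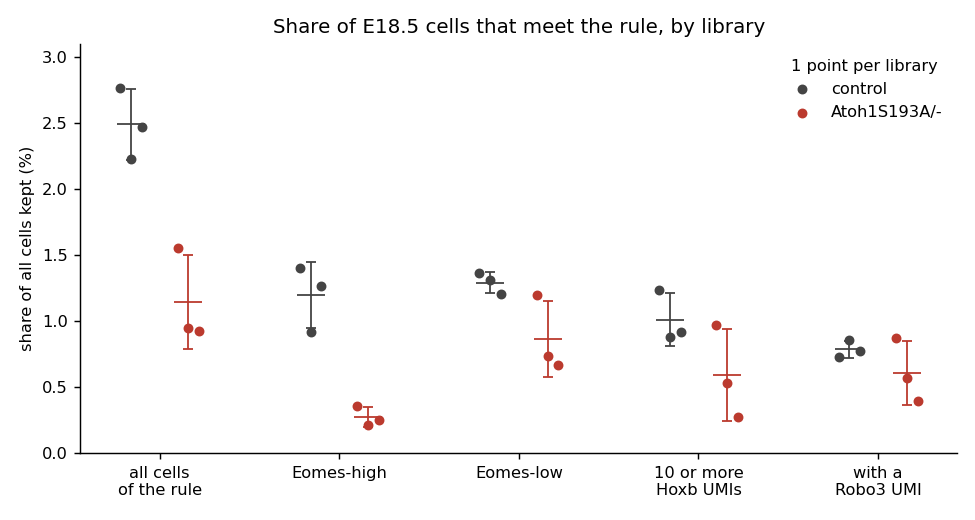
Share of all kept E18.5 cells (%, y axis) that met the rule, by library (points), with the mean and SD of 3 libraries per genotype, for all Nhlh1/Hoxb cells and for 4 classes of them. The Eomes-high cells have the lowest ratio between genotypes (1.20 ± 0.249% against 0.277 ± 0.0760%), and the genotypes overlap for cells with 10 or more Hoxb UMIs and for cells with a Robo3 UMI.

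At E14.5 the same rule took 4591 cells and a larger share of the sorted cells. The share was 10.8, 10.7 and 9.55% in control and 7.69, 8.11 and 8.71% in Atoh1S193A/- libraries, without overlap, a ratio of 0.788 (two-sided exact permutation p = 0.1). Eomes-high cells were a small part of the cells of the rule at this stage, 5.17 to 10.5% over the libraries. They made up 0.843, 0.790 and 0.494% of all cells in control and 0.805, 0.638 and 0.626% in Atoh1S193A/- libraries, and the genotypes overlapped. Their mean share of all cells was 0.709% in control and 0.690% in Atoh1S193A/- libraries, against 1.20% and 0.277% at E18.5.

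Nhlh1/Hoxb cells were compared first with the 6535 Hoxb-negative cells of the same libraries that met every other criterion. Those were mostly of the cerebellar lineage: 3 or more UMIs of Eomes, Lmx1a and Otx2 were found in 62.3 ± 1.6% of them in control libraries and 58.1 ± 4.5% in Atoh1S193A/- libraries (SD, n = 3 each). Their medians of 10489 to 15356 UMIs per cell were below those of the Nhlh1/Hoxb cells in every library. Of 9493 genes tested, 513 (5.40%) passed an FDR of 0.05 and a log2 difference of more than 1 in either direction, 311 (3.28%) higher and 202 (2.13%) lower in Nhlh1/Hoxb cells. A gene entered when its mean detection over the sums compared was at least 10% of cells, and one that reached this through 1 set alone was likely to differ by that choice, so it is given as a description. Of 8966 genes detected at that limit in both sets, 158 (1.76%) were higher and 162 (1.81%) lower. In Eomes-low cells of both kinds, 869 of 9431 genes (9.21%) were called. The libraries were a block in the fit, and the edgeR quasi-likelihood test was used.

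Robo3 and Crabp1 were among the 3 genes with the largest rises. Robo3, Prox1 and Hrk had been named as markers of these cells with earlier results of these data known, so their values here are a description and are given without a p-value. Robo3 (chr9:37415669-37433246, minus strand) stood at 117, 186 and 137 CPM in the Nhlh1/Hoxb cells of control libraries and 305, 327 and 158 CPM in those of Atoh1S193A/- libraries. It stood at 0.0908 to 0.896 CPM in the Hoxb-negative cells, a log2 difference of 8.53 ± 0.18. The sets did not overlap in any library. After thinning to 5000 UMIs, 34.0 ± 12.3% of Nhlh1/Hoxb cells held a Robo3 UMI against 0.245 ± 0.0933% of Hoxb-negative cells (SD, n = 6). Crabp1 (chr9:54764748-54773110, plus strand) stood at 887, 1326 and 994 CPM in control and 1695, 1175 and 901 CPM in Atoh1S193A/- libraries, against 1.06 to 2.75 CPM, a difference of 9.19 ± 0.19. It reached the detection limit through the Nhlh1/Hoxb cells alone (a mean over libraries of 66.1 against 2.49% of cells), as did Robo3, so both values are a description.

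The other markers named with these cells were higher as well. Hrk (chr5:118164648-118189478, plus strand) stood at 134, 179 and 197 CPM in control and 291, 341 and 115 CPM in Atoh1S193A/- libraries against 7.10 to 12.7 CPM in Hoxb-negative cells, a difference of 4.49 ± 0.24. Prox1 (chr1:190118035-190170714, minus strand) stood at 132, 155 and 156 CPM and 184, 165 and 118 CPM against 29.6 to 35.9 CPM, a difference of 2.19 ± 0.08. For both genes the lowest Nhlh1/Hoxb value lay above the highest Hoxb-negative one. Of the study's 10 markers of E18.5 migrating pontine neurons, 8 of 10 tested rose and none fell (median 2.52, against -0.02 over all genes tested), and since the study chose them on these libraries this is not independent evidence. Of the rises 5 were of genes detected in both sets, without Robo3, Crabp1 and Gad2, and in the Eomes-low cells 9 of 10 rose. Beyond Robo3 and Crabp1 they were Thsd7a (4.27), Gad2 (5.83), Fbxl7 (2.93), Sobp (2.10), Tub (1.90) and Rgmb (1.46).

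Of 20 Hox genes that the rule did not use, 3 were found in enough cells to be tested. They reached the limit through the Nhlh1/Hoxb cells alone, so their direction is a description. Hoxa2 (5.69), Hoxa3 (6.81) and Hoxa4 (6.34) were higher, with Hoxa3 at 85.3 ± 23.8 CPM against 0.772 ± 0.349 CPM (SD, n = 6). They lie on another chromosome than the Hoxb genes of the rule. The list of precerebellar transcription factors also held the cell cycle inhibitor gene Cdkn1c. Of its 37 genes tested, 11 rose and 3 fell (median 0.43), beside 3.28% of all genes higher and 2.13% lower. Among them 9 of those that rose and 2 of those that fell were detected in both sets, without Meis2, Ebf2 and Lhx9, and in the Eomes-low cells 12 rose and 2 fell of 35. Among those that rose were the Hox cofactor gene Meis2 (197 ± 80.8 against 10.2 ± 4.69 CPM, 4.32), the zinc-finger genes Bcl11a (2.77) and Zbtb20 (1.72), Mab21l2 (3.03), the nuclear factor I genes Nfix (1.81) and Nfib (1.17), and Atoh1 itself (1.39). Neurod1 (509 ± 186 against 1663 ± 268 CPM, -1.75), Mab21l1 (-1.16) and Lhx9 (-1.04) fell, with Lhx9 below the detection limit in the Eomes-low comparison.

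Granule lineage genes were lower. Of 12 markers 8 were tested and 7 fell (median -1.54), among them the engrailed genes En1 (-1.93) and En2 (-1.90), which pattern the midbrain and cerebellum, Tlx3 (-2.11), Pax3 (-1.32) and Cbln1 (-1.13), the gene of a synaptic organizer. Of the falls 5 were of genes detected in both sets, without En1 and Tlx3, beside 1.81% of all such genes lower. In the Eomes-low comparison 8 of 8 fell. Of the 5 unipolar brush cell markers none passed the test (median -0.71), with Eomes at 184 ± 79.4 against 339 ± 51.8 CPM (SD, n = 6). Markers of blood, immune and vascular cells were found in too few cells to be tested, with Csf1r and Ptprc at 0 UMIs in the Nhlh1/Hoxb cells. Their sum was not low in every library. It stood at 1626 CPM in control library 3 and at 2.31 to 8.13 CPM in the other 5, and control library 3 held 7171 UMIs of the hemoglobin genes Hbb-bs, Hbb-bt, Hba-a1 and Hba-a2 against 1 to 16. Without the cells of highest Scrublet doublet score the sum in control library 3 was 15.1 CPM with 37 hemoglobin UMIs, and in Eomes-low cells it was 10.2 CPM. The part of these cells in the results was not tested, and the count between genotypes without control library 3 is given below. Gabra6, a gene of mature granule neurons, was at 0 UMIs too.

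Markers of other cell types moved with this comparison in both directions. Of all genes tested 3.28% were higher and 2.13% lower, and of those detected in both sets 1.76% and 1.81%. In the Eomes-low cells 9.21% of all genes were called in either direction. Of 9 monoaminergic and cholinergic markers, the serotonergic gene Fev was at 0 UMIs and the choline transporter gene Slc5a7 was tested and higher (2.80), reaching the limit through the Nhlh1/Hoxb cells alone, and the list summed to 28.3 to 55.2 CPM against 3.94 to 7.01 CPM in Hoxb-negative cells. Of 10 progenitor and glial markers 3 rose and 2 fell, with 0 of the rises and 2 of the falls in genes detected in both sets, so that the rises of Apoe, Sox2 and Sparcl1 are a description, and in the Eomes-low cells 3 rose and 2 fell of 10. Inhibitory neuron markers summed to 153 to 258 CPM against 116 to 184 CPM, and their 1 tested gene, Lhx1, did not pass (0.40). Of 6 genes of the response to dissociation tested, Egr1 fell (-1.41), and that list summed to 420.3 to 682 CPM against 732 to 1335 CPM, without overlap. Their part in the result was not tested.

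Guidance genes split in direction. Of 28 guidance receptors tested, 5 rose and 5 fell (median 0.02), with 1 of the rises and 4 of the falls in genes detected in both sets, beside 1.76% of all such genes higher and 1.81% lower. Among Eomes-low cells 5 rose and 6 fell of 26. The rise in both sets was that of the Eph receptor gene Ephb1 (1.09). Robo3, a marker chosen with results known, the neuropilin genes Nrp1 (136 ± 23.6 against 9.36 ± 2.92 CPM, 3.86) and Nrp2 (2.34), which encode semaphorin receptors, and Epha4 (2.96) were higher and reached the limit through the Nhlh1/Hoxb cells alone. The netrin receptor genes Unc5b (-1.29) and Unc5c (-1.06), the Sonic hedgehog co-receptor gene Boc (-1.61, detected through the Hoxb-negative cells alone), Neo1 (-1.09) and Epha5 (-1.21) fell. The netrin receptor gene Dcc (0.07 ± 0.15, adjusted p = 0.742, edgeR) and the chemokine receptor gene Cxcr4 (0.03 ± 0.13, adjusted p = 0.864, edgeR) did not pass. Of 19 guidance ligands 6 rose, among them Wnt5a (2.63), the ephrin genes Efna3 (2.27) and Efnb3 (1.10), and Slit2 (1.06), and 2 fell, Sema5a (-2.13) and the chemokine gene Cxcl12 (-2.05). Of the rises 4 were of genes detected in both sets, without Wnt5a and Efna3, and in the Eomes-low cells 7 rose and 5 fell of 17.

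Of the genes of adhesion, neuron maturation and cell death, 5 of 30, 10 of 38 and 2 of 20 were called, beside 5.40% of all genes tested. Of 30 migration and adhesion genes 4 rose, among them Chl1 (2.54) and Ncam2 (4.14), and Cdh11 fell (-1.68), with Ncam2 below the limit in Hoxb-negative cells, and in the Eomes-low cells 6 rose and 4 fell of 30. Of 38 neuron maturation genes 9 rose (median 0.27), with the sodium channel genes Scn2a (2.07) and Scn3a (2.00) and the noncoding RNA Snhg11 (3.20) among them, and the vesicular glutamate transporter gene Slc17a7 fell (-1.72). Of the rises 8 were of genes detected in both sets, and Slc17a7 was below the limit in Nhlh1/Hoxb cells. Among Eomes-low cells 11 rose and 6 fell of 38. Of 20 cell death genes Hrk and another BH3-only gene, Bcl2l11 (1.26), rose, with Hrk below the limit in Hoxb-negative cells, and 3 rose in the Eomes-low cells. None of 11 Notch pathway genes tested was called (median -0.06), and in the Eomes-low cells 1 rose and 1 fell of 11.

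Among all genes with at least 20 CPM on average and the same direction in every library, the 10 largest rises were those of the renin gene Ren1 (9.58), Crabp1, Robo3, Hoxa3, the calmodulin-binding protein gene Nrgn (6.63), Gad2, Hoxa2, Cntnap5a (5.51), the tetraspanin gene Tspan18 (5.50) and the GABA receptor gene Gabrg1 (4.93). Ren1 stood at 103 ± 38.9 against 0.115 ± 0.122 CPM, and Gad2, the gene of a GABA-synthesizing enzyme, at 92.6 ± 37.3 against 1.65 ± 0.862 CPM (SD, n = 6). The order of these genes is a description. For genes outside the lists, here and among the falls, detection in both sets was not looked up gene by gene. The 10 largest falls were those of the neuropeptide precursor gene Cartpt (-3.03), the cell cycle kinase gene Cdk6 (-2.50), Sept4 (-2.48), Ostf1 (-2.44), the growth factor receptor gene Pdgfra (-2.35), Lynx1 (-2.32), Sp5 (-2.24), the protease gene Adamts1 (-2.18), Sema5a and Ndst3 (-2.13).

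The second comparison set Nhlh1/Hoxb cells against 2589 Nhlh1-negative cells that met the other criteria and held no Nhlh1 UMI. Their medians of 14635 to 20205 UMIs per cell were higher than those of Nhlh1/Hoxb cells in every library. Of 9845 genes tested, 662 (6.72%) were called at the same limits, 253 (2.57%) higher and 409 (4.15%) lower in Nhlh1/Hoxb cells. Of 9393 genes detected in at least 10% of cells of both sets, 184 (1.96%) were higher and 263 (2.80%) lower. In Eomes-low cells of both kinds 997 of 9791 genes (10.2%) were called.

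Robo3 stood at 3.77 to 14.7 CPM in the Nhlh1-negative cells and at 203 ± 88.9 CPM in Nhlh1/Hoxb cells (SD, n = 6), a difference of 4.76 ± 0.07, without overlap. It reached the detection limit through the Nhlh1/Hoxb cells alone. Robo3, Hrk and Prox1 were chosen as markers with results known, so their values are a description here too. After thinning to 5000 UMIs a Robo3 UMI was found in 2.65 ± 1.23% of the Nhlh1-negative cells (SD, n = 6). Crabp1 (2.91 ± 0.13, adjusted p = 1.11e-05, edgeR) was higher too, as was Hrk (2.36 ± 0.24). Prox1, at 150.5 ± 23.5 against 93.3 ± 16.9 CPM (SD, n = 6), had a difference of 0.67 ± 0.15 that was below the limit of 1, and in Eomes-low cells it was called at 1.04.

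Most intermediate progenitor markers rose, and a minority of the neuron maturation genes fell, beside 2.57% of all genes higher and 4.15% lower. Of the study's 10 markers of intermediate progenitors, 9 of 10 rose and none fell (median 1.47, against 0.02 over all genes tested), among them Mfap4 (2.24), Hsd11b2 (2.01), Cd63 (1.48) and Mdk (1.46); the study chose them on these libraries. Of the rises 8 were of genes detected in both sets. In the Eomes-low cells 9 rose and 0 fell of 10. Of 36 genes from the list of precerebellar transcription factors 14 rose, with Insm1 (2.07), Nhlh2 (2.06), Ebf3 (1.84), Atoh1 (1.66), at 56.4 ± 34.2 against 17.3 ± 10.6 CPM, and Pax6 (1.03) among them. Cdkn1c, a cell cycle inhibitor gene on that list and not a transcription factor gene, fell (-1.22). Of the rises 13 were of genes detected in both sets, and in the Eomes-low cells 16 rose and 1 fell of 35. Of 38 neuron maturation genes 9 fell and Gria1, detected through the Nhlh1/Hoxb cells alone, was higher (1.18) (median -0.73), and in the Eomes-low cells 1 rose and 16 fell. Those that fell included the synaptotagmin genes Syt1 (-1.10) and Syt4 (-1.67), the noncoding RNA Meg3 (2252 ± 711 against 4987 ± 804 CPM, -1.19) and Snhg11 (-1.46).

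Markers of other cell types moved with the second comparison too. Of all genes tested 2.57% were higher and 4.15% lower, and of those detected in both sets 1.96% and 2.80%. In the Eomes-low cells 10.2% of all genes were called in either direction. The progenitor and glial genes Sox2 (1.55), Sox9 (1.53), Id1 (2.36) and Vim (1.63) rose, 4 of 9 tested, with Sox2 and Id1 below the limit in Nhlh1-negative cells, and the 14 genes of that list summed to 545 to 749 CPM in Nhlh1/Hoxb cells against 275 to 433 CPM. The sum of 5 unipolar brush cell markers was 241 to 617 CPM against 113 to 354 CPM, and 12 granule markers summed to 447 to 1047 CPM against 196 to 426 CPM. In Eomes-low cells the granule markers summed to 171 to 490.5 CPM against 82.1 to 117 CPM. Inhibitory neuron markers summed to 153 to 258 CPM against 43.3 to 57.1 CPM, without overlap, and Lhx1 rose (1.91). Of 7 genes of the dissociation response Jun rose (1.23), and the list summed to 420.3 to 682 CPM against 322 to 399 CPM, without overlap. Monoaminergic and cholinergic markers summed to 28.3 to 55.2 CPM against 35.4 to 69.7 CPM, and Slc5a7 fell (-1.02). Among Eomes-low cells 4 of 9 progenitor and glial genes rose. The part of these cells in the result was not tested.

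Subtype markers of differentiated pontine neurons were lower in Nhlh1/Hoxb cells for 3 of the study's 4 E18.5 subtypes, named ePN1 to ePN4. Of all genes tested in this comparison 4.15% were lower and 2.57% higher. For ePN2 6 of 10 fell (median -1.06), for ePN3 8 of 9 (median -1.55) and for ePN4 6 of 10 with 1 rise (median -1.13). Examples were the LIM-only factor gene Lmo4 (-1.12), the somatostatin gene Sst (-1.13), Hoxa5 (-2.31) and Hoxc4 (-1.55). Hoxa5 was detected through the Nhlh1-negative cells alone. For ePN2, ePN3 and ePN4, 6, 7 and 5 of the falls were of genes detected in both sets, beside 2.80% of all such genes lower. For ePN1, the subtype marked by Prox1, 3 rose and 3 fell of 10 (median 0.26). Among Eomes-low cells 9, 8 and 6 fell for ePN2, ePN3 and ePN4, and for ePN1 5 rose and 3 fell. Over the 9791 genes tested in those cells 371 were higher and 626 lower. The markers were chosen by the study on these libraries.

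Other guidance receptors moved as well. Dcc (92.5, 97.7 and 68.1 CPM in control and 129, 87.0 and 69.5 CPM in Atoh1S193A/- libraries, against 10.0 to 35.3 CPM) was higher by 2.31 ± 0.10, and Cxcr4 by 1.25 ± 0.14. Both genes were above their Nhlh1-negative counterpart in every library. Plxnd1 (-1.59), Ackr3 (-1.42), which encodes a second receptor for Cxcl12, Epha4 (-1.16), Plxna4 (-1.10) and Epha7 (-1.02) were lower, so that 3 of 31 receptors rose, with Robo3, and 5 fell. Of these 1 rise and 2 falls were of genes detected in both sets, Dcc, Epha4 and Epha7, and in the Eomes-low cells 4 rose and 12 fell of 31. Among adhesion genes Cntn2 (1.66), which encodes an axonal adhesion protein, and Thsd7a (2.22) rose, and Chl1 (-1.43), Ncam2 (-1.33), Cdh7 (-1.30) and Cdh8 (-1.56) fell. Of the migration and adhesion list 2 rose and 4 fell of 30, and in the Eomes-low cells 3 rose and 7 fell of 30. Of 20 cell death genes Hrk, Bcl2l11 (1.71) and Dap (1.34) rose, and of 14 Notch genes Mfng (2.06), Hey1 (1.67) and Maml3 (1.33) rose while the ligand gene Dll1, below the limit in Nhlh1/Hoxb cells, fell (-1.01), beside 2.57% of all genes higher and 4.15% lower. Among Eomes-low cells 3 rose and 0 fell of 20 cell death genes and 3 rose and 1 fell of 14 Notch genes.

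**Figure D3:**
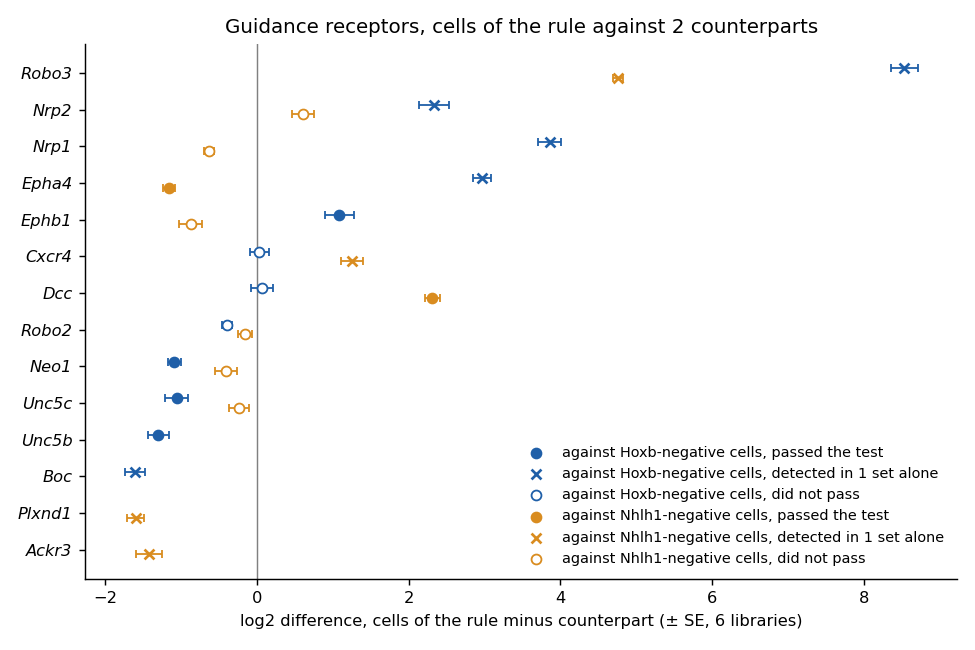
Log2 difference (x axis, ± SE, 6 libraries) of guidance receptor genes between Nhlh1/Hoxb cells and their Hoxb-negative (blue) or Nhlh1-negative (orange) counterparts; filled points passed the test, crosses passed it but were detected in 10% of cells in 1 set alone, and open points did not pass. Robo3 is a cross far right in both comparisons (8.53 and 4.76), and Dcc is filled and Cxcr4 a cross against the Nhlh1-negative cells, and both are open against the Hoxb-negative cells. Unc5b and Boc were too low to be tested against the Nhlh1-negative cells, and Plxnd1 and Ackr3 against the Hoxb-negative cells.

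The 10 largest rises by the rule for named genes were Robo3, Ren1 (4.37), Pdzrn3 (3.14), Tspan18 (3.06), Nrgn (3.01), the complement-like synaptic gene C1ql1 (2.95), the galectin gene Lgals1 (2.94), Crabp1, the phosphodiesterase gene Pde1c (2.72) and Adarb2 (2.62). The 10 largest falls were Hoxa5, the calbindin gene Calb1 (-2.26), Fam131c (-2.09), Rasgrp2 (-2.01), Nxph1 (-2.00), Fibin (-1.96), the glutamate receptor gene Grm3 (-1.91), Stk32c (-1.85), Brinp3 (-1.84) and the reelin signaling adaptor gene Dab1 (-1.84). Both orders are a description, and detection in both sets was not looked up gene by gene for genes outside the lists.

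The 600 Eomes-low cells covered a range of Mapt levels. They were divided by the UMIs of Mapt, the gene of the axonal protein tau, per 10000 UMIs of the cell, into 141 cells under 2, 100 cells from 2 to 5, 250 cells from 5 to 15 and 109 cells of 15 and over. The levels are means of 6 libraries and are given as a description, with 7 or more cells per class and library. Atoh1 stood at 254, 116, 20.8 and 7.80 CPM in the 4 classes in that order, and Mfap4 at 814, 419, 75.7 and 20.2 CPM. Both were highest in the cells with least Mapt. Meg3 stood at 100.3, 348, 1587 and 4791 CPM and Lmo4 at 268, 358, 1044 and 1639 CPM, both highest in the cells with most Mapt.

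The markers of migrating neurons were highest in between. Robo3 stood at 233, 473, 416 and 51.2 CPM, Crabp1 at 2112, 3129, 1905 and 383 CPM and Hrk at 196, 542, 392 and 73.5 CPM, and all were lowest in the cells with most Mapt. Prox1 stood at 179, 230.4, 282 and 103 CPM, from 209 to 339.7 CPM over libraries in the third class and 30.1 to 149.8 CPM in the fourth. Receptor genes took different orders: Dcc stood at 193, 178, 71.9 and 19.1 CPM, Nrp1 at 22.0, 79.8, 226 and 232 CPM and Ephb1 at 8.66, 9.13, 48.0 and 129.6 CPM, so Dcc was highest in the class with least and Ephb1 in the class with most Mapt. Cntn2 stood at 806, 862, 326 and 114 CPM and Draxin, a secreted guidance gene, at 513, 412, 125 and 63.9 CPM.

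**Figure D4:**
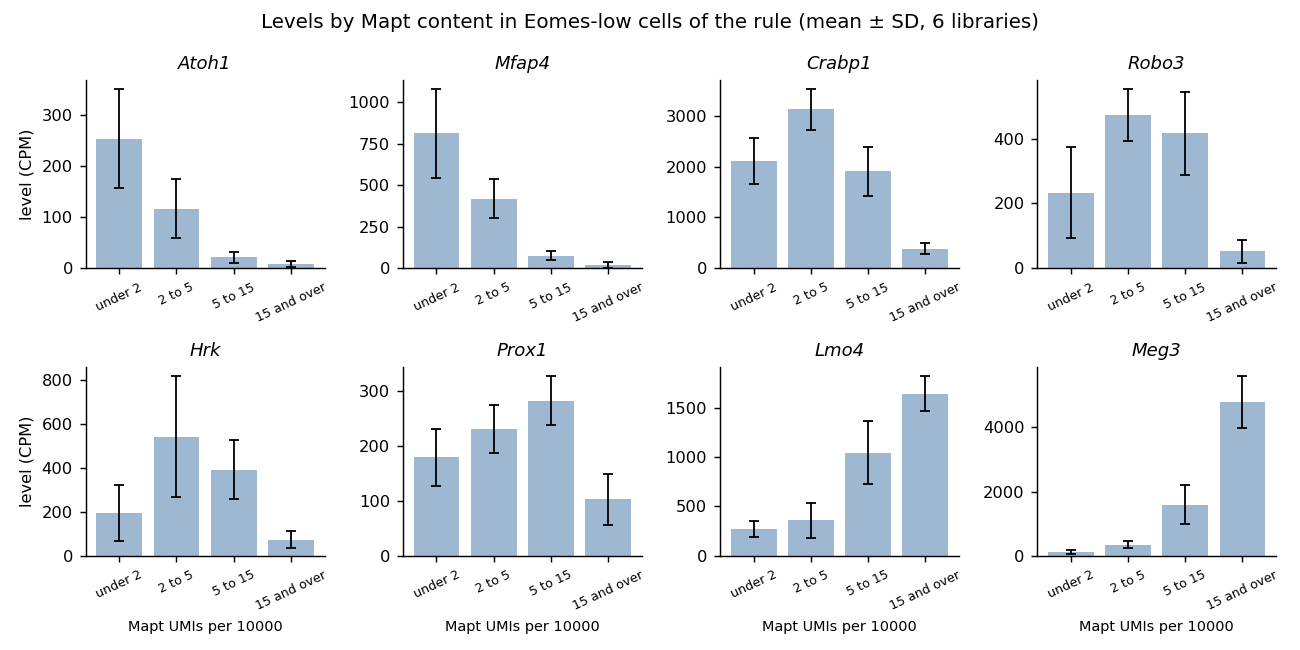
Levels (CPM, linear axes from 0) of 8 genes in the 600 Eomes-low cells by Mapt UMIs per 10000 UMIs; bars are means of 6 libraries and error bars are SD. Atoh1 and Mfap4 fall from left to right, Meg3 and Lmo4 rise, and Robo3, Crabp1, Hrk and Prox1 peak in the middle classes.

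Prox1 RNA divided the Nhlh1/Hoxb cells further. A Prox1 UMI was found in 626 of the 997 cells, in 58.3, 58.3 and 58.4% of the cells of control libraries and 78.0, 68.8 and 60.0% of those of Atoh1S193A/- libraries, without overlap. Eomes-high cells, which held less Prox1, made up 41.2 to 51.3% of the cells in control and 22.5 to 27.5% in Atoh1S193A/- libraries. Their part in this difference was not tested, and the Prox1 level did not pass between genotypes, as given below. After thinning to 5000 UMIs, a Prox1 UMI was found in 13.1 ± 1.05% of Hoxb-negative cells, against 42.6 ± 7.78% of Nhlh1/Hoxb cells (SD, n = 6). Between Prox1-positive and Prox1-negative cells, 254 of 9729 genes (2.61%) were called, 116 (1.19%) higher and 138 (1.42%) lower in Prox1-positive cells, with libraries as a block (edgeR). Of 9386 genes detected in 10% of cells of both, 86 (0.916%) were higher and 105 (1.12%) lower. In Eomes-low cells 233 of 9687 genes (2.41%) were called, 50 higher and 183 lower. Prox1 itself was not tested because it divided the cells.

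Unipolar brush cell genes were lower in Prox1-positive cells, with 4 of 5 called (median -1.86), beside 1.42% of all genes lower, among them Lmx1a (-2.15), Otx2 (-1.86) and Eomes (-1.85). Of the falls 2 were of genes detected in both sets, and Lmx1a was detected through the Prox1-negative cells alone. Of the 10 markers of migrating neurons, which the study chose on these libraries, 8 rose (median 1.45, against -0.01 over all genes tested). Among Eomes-low cells 2 of 10 were called and the median was 1.13, against 0.01 over all genes. Crabp1 (2.33 ± 0.36, adjusted p = 0.0132, edgeR) was called over all cells and not in the Eomes-low cells, where it differed by 1.18 at an adjusted p of 0.187, and Gad2 (2.18 ± 0.17, adjusted p = 8.85e-07, edgeR) was called in both. Robo3 was higher by 2.85 ± 0.31 and by 1.62 in the Eomes-low cells, and Hrk by 2.32 ± 0.25, as a description of chosen markers. Hrk stood at 166 to 465 CPM in Prox1-positive and 24.2 to 92.6 CPM in Prox1-negative cells of the 6 libraries.

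By the rule for named genes the largest rises were also those of the transcription factor gene Scx (3.71), the transferrin gene Trf (2.77), Ren1 (2.74), Nrgn (2.50), Klhl32 (2.11) and Id4 (2.06). Ren1 and Nrgn were not called in Eomes-low cells, and Scx, Trf, Klhl32 and Id4 were. The largest falls were Abca4 (-2.40), the chemokine gene Cxcl14 (-2.36), Lmx1a, Ebf2 (-2.11), Kcnip4 (-2.10), Ptprt (-2.00), Slit1 (-1.90), Patj (-1.85), Plagl1 (-1.76) and Kcnd3 (-1.75). Both orders are a description, and genes outside the lists were not looked up one by one for detection in both sets. Of 29 guidance receptors 2 rose, Robo3 among them, and 4 fell, beside 1.19% of all genes higher and 1.42% lower. Plxna2 (-1.62), Unc5a (-1.86, below the limit in Prox1-positive cells) and Unc5c (-1.34) were among the falls. The 2 rises and 3 of the falls were of genes detected in both sets. In the Eomes-low cells 0 rose and 6 fell of 28 receptors, beside 50 higher and 183 lower of 9687 genes.

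Between genotypes, few genes differed within the Nhlh1/Hoxb cells, and those that fell in Atoh1S193A/- libraries included genes of unipolar brush cells. Of 9736 genes tested, 30 (0.308%) passed an FDR of 0.05 and a log2 difference of more than 0.25 in either direction, 2 (0.0205%) higher and 28 (0.288%) lower in Atoh1S193A/- libraries (edgeR). DESeq2 called 51, 11 higher and 40 lower, and an edgeR fit with littermate pairs as blocks called 109, 33 higher and 76 lower. Other choices of cells moved the count both ways, to 51 without Scrublet doublets and 52 among cells with no En1 or En2 UMI, and to 1 at under 5% mitochondrial UMIs, 0 at 4 or more Hoxb UMIs (362 at an unadjusted p under 0.05) and 6 with 80 cells from each library. Eomes, Otx2, Bcl11b and Gad2, given below with adjusted p-values, passed neither under the limit on mitochondrial UMIs nor at 4 or more Hoxb UMIs, and Eomes and Bcl11b passed with 80 cells from each library. In the Eomes-low cells edgeR called 0 of 9586 genes, with 279 at an unadjusted p under 0.05, and with the pair as a block 0, with 404 at an unadjusted p under 0.05. DESeq2 was not run on that subset. The count depended on single libraries: it was 6 without control library 1, 9 without control library 3 and 3 without Atoh1S193A/- library 2.

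Of 5 unipolar brush cell markers 4 fell (median -1.17, against 0.01 over all genes tested), beside 0.288% of all genes lower. Whether these and the other genes called between genotypes reached the detection limit in both genotypes was not looked up. Eomes stood at 279.5, 247 and 241 CPM in control and 123, 113 and 103 CPM in Atoh1S193A/- libraries, a difference of -1.17 ± 0.10 (adjusted p = 4.99e-04, edgeR), and Otx2 at 236, 239 and 225 and 107, 74.9 and 131 CPM, a difference of -1.16 ± 0.16 (adjusted p = 0.0197, edgeR). Neither overlapped between the genotypes. Lmx1a (-1.63) fell too. The markers summed to 535 to 617 CPM in control and 241 to 289 CPM in Atoh1S193A/- libraries, beside the smaller share of Eomes-high cells given above. The 12 granule markers summed to 821 to 1047 and 447 to 815 CPM over all Nhlh1/Hoxb cells.

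The zinc-finger gene Bcl11b stood at 126, 132 and 113 CPM in control and 43.4, 35.3 and 58.8 CPM in Atoh1S193A/- libraries, a difference of -1.44 ± 0.15 (adjusted p = 0.00279, edgeR), and at 0.28 in Eomes-low cells (adjusted p = 1). The other largest falls were Patj (-1.39), the adrenergic receptor gene Adra2c (-1.16), the potassium channel partner gene Kcnip4 (-1.08), Plxna2 (-1.03), Bhlhe22 (-0.98), Car10 (-0.98) and Ppm1h (-0.85). Like Bcl11b, Ppm1h had the other direction in Eomes-low cells (0.02), and Plxna2 had it in cells with 10 or more Hoxb UMIs (0.06). From the lists, Mab21l1 (-0.82), Nrn1 (-0.66) and Nr2f1 (-0.59) fell as well. The 2 genes that rose were Gad2, at 63.9, 57.8 and 67.4 CPM in control and 155, 114 and 98.4 CPM in Atoh1S193A/- libraries (0.98 ± 0.15, adjusted p = 0.0322, edgeR), and Prdm6 (0.93 ± 0.17, adjusted p = 0.0496, edgeR). In Eomes-low cells Gad2 had a difference of 0.55 and did not pass.

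The defining genes did not pass the test between genotypes. Robo3 stood at 117, 186 and 136 CPM in control and 306, 328 and 157 CPM in Atoh1S193A/- libraries (0.86 ± 0.34, adjusted p = 0.763, edgeR). The genotypes overlapped, while the Atoh1S193A/- embryo was higher in every pair. Crabp1 (0.24 ± 0.28), Hrk (0.56 ± 0.44), Prox1 (0.09 ± 0.15) and Atoh1 (0.85 ± 0.64) did not pass either, at adjusted p of 0.949, 0.907, 0.968 and 0.902 by edgeR. Genes that the study names as changed in cell states of the E14.5 hindbrain were also looked up in these E18.5 cells, so that the stage differs and the cells may too. Pcp4 differed by 0.07 ± 0.56, Rab15 by -0.76 ± 0.23, Pak3 by 0.04 ± 0.14, Dap by 0.32 ± 0.19 and Hes5 by 0.55 ± 0.84, and none of the 7 tested passed. Rab15 differed by -1.39 in the Eomes-low cells (adjusted p = 0.814, edgeR). Of 38 neuron maturation, 20 cell death and 13 Notch genes tested, 0 were called by edgeR, beside 0.308% of all genes tested, so that this 0 is no result about the lists. Their medians were 0.14, 0.10 and 0.03.

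**Figure D5:**
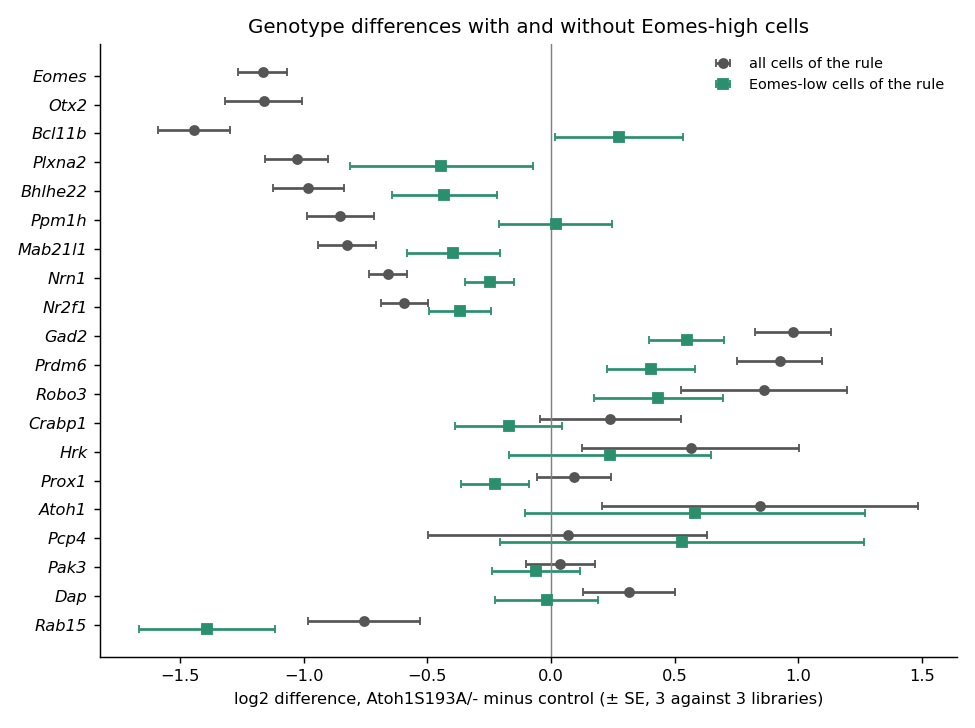
Log2 difference between Atoh1S193A/- and control libraries (x axis, ± SE, 3 against 3 libraries) in all Nhlh1/Hoxb cells (grey circles) and in Eomes-low cells (green squares). Bcl11b stands at -1.44 with and 0.28 without the Eomes-high cells, and Eomes and Otx2, which divide these cells, are drawn without an Eomes-low value.

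Cells of the same rule at E14.5 differed from those at E18.5 in their mixture too, since Eomes-high cells made up 5.17 to 10.5% of them in the 6 E14.5 libraries and 22.5 to 51.3% at E18.5. Of 9770 genes tested with genotype in the model, 656 (6.71%) were called at an absolute log2 difference over 1, 424 (4.34%) higher and 232 (2.37%) lower at E18.5 (edgeR). The embryos of both stages were separate libraries, and 2 of the E14.5 control libraries were made with another Cell Ranger version, without which 625 genes were called. Of 9326 genes detected in 10% of cells at both stages, 294 (3.15%) were higher and 156 (1.67%) lower. In the Eomes-low cells 613 of 9625 genes (6.37%) were called, 378 higher and 235 lower. Hoxb content differed as well, with 10 or more Hoxb UMIs in 4206 of 4591 cells at E14.5 and 446 of 997 at E18.5. Among cells with 10 or more, 493 of 9723 genes (5.07%) were called. The part of Hoxb content in the stage differences was not tested. Of 7 Hox genes outside the rule that were found in enough cells, 6 fell (median -2.07, against 0.00 over all genes), among them Hoxc5 (-4.54), Hoxa5 (-3.46) and Hoxc4 (-3.02), and 5 fell in the Eomes-low cells. Of the falls 4 were of genes detected at both stages, without Hoxc5 and Hoxa5, which were detected through the E14.5 cells alone. Of the 10 markers of migrating neurons 1 rose and 2 fell, and in the Eomes-low cells 4 rose and 1 fell.

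Of 37 neuron maturation genes 10 rose (median 0.48), among them the kinase gene Camk4 (71.8 ± 20.7 against 4.35 ± 0.799 CPM, 4.02) and Gabra2 (2.31), and Ina, a neurofilament gene, fell (-1.21), beside 4.34% of all genes higher and 2.37% lower. Of the rises 9 were of genes detected at both stages, without Camk4. In the Eomes-low cells 12 rose and 1 fell. Hrk, chosen as a marker of the E18.5 cells, stood at 24.5 to 81.0 CPM in the 6 E14.5 libraries and 111 to 329.6 CPM in the E18.5 libraries, a difference of 2.31 ± 0.33 given as a description, and Gad2 rose by 2.66 ± 0.33. Crabp1 fell (-2.18 ± 0.20, adjusted p = 8.25e-06, edgeR), as did Atoh1 (-1.85), Pcp4 (-2.52), Lhx2 (-3.64) and the chemokine receptor gene Cxcr4 (-2.52). Robo3 had a difference of -0.85 ± 0.21 and did not pass the limit of 1. Of 15 Notch genes 5 fell, among them Dll1 (-1.45), Dll3 (-1.46) and Hes6 (-1.17), with 4 of the falls in genes detected at both stages, without Dll1, and in the Eomes-low cells 1 rose and 4 fell of 14.

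The largest rises were Cxcl14 (6.69), Gabrg1 (4.97), Eomes (4.10), Camk4, Cntnap5a (3.79), Diras2 (3.64), Cadps2 (3.58), Otx2 (3.53), Ppp2r2c (3.45) and Car10 (2.96), with Eomes and Otx2 beside the larger part of Eomes-high cells at E18.5. Eomes and Otx2 reached the detection limit through the E18.5 cells alone, as did Camk4, so their values are a description. For genes outside the lists, here and among the falls, detection at both stages was not looked up gene by gene. Cxcl14, Diras2 and Car10 were below the detection limit in the Eomes-low cells. Among the largest falls were Ttr (-7.55), a gene of the choroid plexus that stood at 675 ± 1008 CPM at E14.5 (SD, n = 6), Crabp2 (-5.63), Pou3f1 (-5.20), Hoxc5, Necab2 (-4.20), Lhx2, Hoxa5, S100a6 (-3.34) and Hoxc4. By the interaction term in edgeR 2 of 9770 genes (0.0205%) were called for a genotype effect that differed between the stages, Eomes (-1.41) and Nrn1 (-0.90). This term had no limit on the log2 difference. Eomes entered it through the E18.5 cells alone, so its value is a description. DESeq2 called 20, and an edgeR fit with littermate pairs as blocks 34. In Eomes-low cells edgeR called 0 of 9625 genes, with 307 at an unadjusted p under 0.05.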

How the data were processed

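Single hindbrain cells of Atoh1Cre; Rosa lsl-TdTomato embryos were sorted and sequenced with the 10x Chromium 3′ v3.1 chemistry, 1 library per embryo. The deposited values are raw UMI counts per gene and cell, which the authors made with Cell Ranger (5.0.1 per the labels and the headers of 12 files, 3.1.0 in the headers of 2 E14.5 control files) on mm10 with an added WPRE sequence. In the study doublets were removed after this step with DoubletFinder and cells were filtered in Seurat. Doublets were kept here, and Scrublet scores (scanpy 1.11.5) gave an alternative without the highest 7.5% of each library.

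UMIs were summed per library and set of cells, the library being the replicate, in Python 3.11.15 with numpy 2.4.6 and scipy 1.17.1. Genes detected in at least 10% of cells on average over the sums compared were tested with the edgeR 4.0.16 quasi-likelihood test (R 4.3.3, TMM factors). A call asked for a Benjamini-Hochberg FDR under 0.05. It also asked for an absolute log2 difference over 0.25 between genotypes and over 1 elsewhere, but the interaction term had no such limit. Libraries were a block where sets of the same library were compared. Sums of fewer than 10 cells were left out of the tests, and levels by class of UMIs include smaller ones. DESeq2 1.42.0, other cell limits, a fit with the littermate pair as a block and fits without each library were alternatives. The scripts were tested on simulated data with 200 changed genes. Shares were compared by exact permutation and sign-flip tests that went through every arrangement of the libraries, in Python with numpy. Shares at a limit on UMIs depend on depth and were also taken after thinning each cell to 5000 UMIs, leaving out cells below it.

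The labels describe littermate pairs, and embryos of the same number were taken as the pairs. Deviations from the group means correlated at 0.28, 0.098 and 0.46 within pairs and at -0.44 to 0.23 between other numbers. Beside listed genes, each test names up to 10 called genes that rose most and 10 that fell most, if their groups did not overlap and their mean was at least 20 CPM, without genes of the rule, sex-linked marker genes, mitochondrial genes and unnamed gene models. Not every gene that met these rules is reported here. The cells, the gene lists and the markers were chosen with earlier results of these data known.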

Additional observations from a re-analysis of the deposited data

Results flagged for a closer look

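The edgeR interaction term called Nrn1 and Eomes. For the neuritin gene Nrn1 the genotype effect in Nhlh1/Hoxb cells differed by -0.90 on the log2 scale (E18.5 minus E14.5, adjusted p = 0.0301, edgeR interaction term). For Eomes it differed by -1.41. Eomes reached the detection limit through the E18.5 cells alone and divides the cells, so its value is a description, given without a p-value. The same term called 0 genes at under 5% mitochondrial UMIs, 0 in Eomes-low cells and 0 to 5 with 1 library left out. Eomes was higher in control than in Atoh1S193A/- libraries at E18.5, beside the larger share of Eomes-high cells there, whose part in this was not tested. The rule was also applied to the 2 libraries of postnatal day 5, which no comparison used, and took 40 cells.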

How the results depend on the processing

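The lower share of Nhlh1/Hoxb cells in Atoh1S193A/- libraries kept its direction in all alternatives (differences of -1.21 to -1.55 percentage points when 1 library was left out, and -1.35 with the replicate block, which gives the same value). The alternatives on the 600 Eomes-low cells and on cells with 10 or more Hoxb UMIs were added after seeing the data. For the 30 genes called between genotypes, DESeq2 called 51, the limit of 5% on mitochondrial UMIs left 1 (421 at an unadjusted p under 0.05), leaving out Scrublet doublets gave 51, cells without En1 or En2 UMIs 52, cells with 4 or more Hoxb UMIs 0 (362 at an unadjusted p under 0.05), the replicate block 109 and 80 cells from each library 6. Eomes-low cells gave 0 with and without the replicate block, and cells with 10 or more Hoxb UMIs gave 2. When 1 library was left out the count was 3 to 49. In Eomes-low cells Bcl11b was reversed at 0.28 (0.26 with the replicate block) and Ppm1h at 0.018 (0.020), and with 10 or more Hoxb UMIs Otx2 at 0.19 and Plxna2 at 0.059. Eomes, Lmx1a and Otx2 divide the cells and have no Eomes-low value.

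A minimum of 10 UMIs in place of detection in 10% of cells, which tests more genes, called 1775 in place of 513 genes against the Hoxb-negative cells, 1639 in place of 662 against the Nhlh1-negative cells, 1809 in place of 656 between stages and 413 in place of 254 by Prox1. Eomes-low cells gave 869 and 997 for the first 2 of these, and 10 or more Hoxb UMIs gave 1248 against Nhlh1-negative cells and 4 by Prox1, where 3 libraries had enough cells. Scrublet filtering gave 427 by Prox1. Left-out libraries gave 491 to 546, 647 to 688, 613 to 699 and 229 to 282. The interaction count of 2 became 20 with DESeq2, 0 at under 5% mitochondrial UMIs (416 at an unadjusted p under 0.05), 7 without Scrublet doublets, 4 without En1 or En2, 34 with the replicate block, 0 in Eomes-low cells (307) and 0 to 5 with a library left out. The cause of these shifts was not tested. Of the called genes named, all 16 between genotypes lost their call in some alternative, 21 of 25 by Prox1, 10 of 69 and 9 of 65 against the Hoxb-negative and Nhlh1-negative cells, and 1 of 30 between stages. Over all Nhlh1/Hoxb cells, the replicate block ended no call of a named gene.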

Other observations

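Cells that met every criterion except for a single UMI of Mki67 or Top2a numbered 218 at E18.5, with 9 to 63 per library. Robo3 stood at 175 ± 56.5 CPM in them (SD, n = 6), Crabp1 at 918 ± 299 CPM and Eomes at 189 ± 85.9 CPM.

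Against the Hoxb-negative cells, most tested markers of differentiated pontine neurons were higher for 3 of the study's 4 subtypes. For ePN1 7 rose and 1 fell of 10 tested (median 1.92), for ePN2 6 rose of 10 (median 1.17) and for ePN3 5 of 7 (median 1.30), against -0.02 over all genes tested. For ePN4 2 rose and 2 fell of 8 (median 0.23). Of the rises 4 for ePN1, 3 for ePN2 and 4 for ePN3 were of genes detected in both sets, beside 1.76% of all such genes. Among them was the LIM-only factor gene Lmo4 (3.09), while the somatostatin gene Sst, higher by 4.13, reached the limit through the Nhlh1/Hoxb cells alone. The study chose those markers on these libraries.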
